A study of Mus musculus with 16 samples.

Results

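The CD3 complex and the CD8 co-receptor were described through 6 genes of mouse T cells, Cd3e, Cd3d, Cd3g, Cd247, Cd8a and Cd8b1. The members were the non-control array probes whose gene name was one of these symbols or an older alias. They made up 6 of the 22328 genes with a probe, with 8 probes among 31381, and each gene was read with its brightest probe.

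The study measured how mRNAs were spread between polysomal and sub-polysomal RNA in T cells from lymph nodes. Both genotypes were OT-1het, Rag-/-: all cells carried the transgenic OT-1 receptor for the ovalbumin peptide SIINFEKL, and without Rag they make no other antigen receptor. The WT group had 4 extracts, and the Lck-/- group had 4 extracts of cells labelled Lck-/- in addition. Cells of both groups were cultured, received 100 nM SIINFEKL for 24 h, and got 100 µg/ml cycloheximide, which holds ribosomes on mRNA, for the last 10 min. The age of the mice and the kind of Lck allele are not given in the labels, and the word OFF that the series title adds to Lck-/- is not explained. The extracts are called biological replicates, but no label ties them to separate mice or cultures, and p-values therefore cover no more than the spread among these extracts, which may be technical. Lysates without nuclei were run on sucrose gradients of 10 to 50%, and the light fractions, 1 to 5, became the sub-polysomal pool and the heavy ones, 6 to 10, the polysomal pool. Each extract's pools were set against each other on an Agilent 2-colour array and again, with the dyes swapped, on another, which gave 16 arrays on 2 slides.

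The T cell receptor has no signalling motif of its own. It is carried to the surface with the CD3 subunits epsilon, delta, gamma and zeta, whose cytoplasmic tails hold immunoreceptor tyrosine-based activation motifs (ITAMs). CD8 binds class I major histocompatibility molecules outside the cell and carries the kinase Lck on the tail of its alpha chain inside, and Lck phosphorylates the tyrosines of the ITAMs so that the kinase ZAP-70 can dock.

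The probes of Cd3d and Cd247 lie on the ITAM-coding part of their mRNAs, which is why they are shown. Capitals mark a tyrosine codon, 2 further codons and a leucine codon, a unit that occurs in the same reading frame on each side of 7 other codons. The search, in the 3 frames of the probe as printed on the array, allowed leucine or isoleucine and 6 to 8 codons in between, and found such a pair in an open frame in 37 of 55681 probes (0.0664%).
Cd3d probe: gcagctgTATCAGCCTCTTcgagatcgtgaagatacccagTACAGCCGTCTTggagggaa
Cd247 probe: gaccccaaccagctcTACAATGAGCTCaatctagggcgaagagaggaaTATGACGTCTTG
The Cd3d probe was placed by the array's annotation at chr9:44794171-44794402 of mm9, plus strand. That span of 232 bases for a probe of 60 means that its match is split between exons. The Cd247 probe was placed at chr1:167786567-167787585, plus strand, a split match with a span of 1019 bases. The third sequence is a Cd8a probe whose polysome ratio differed from that of the brightest Cd8a probe. Capitals mark codons for a tyrosine, any amino acid and a cysteine, which belong to the immunoglobulin-type domain of CD8 alpha.
Cd8a upstream probe: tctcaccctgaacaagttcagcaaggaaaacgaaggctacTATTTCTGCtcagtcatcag
It lies at chr6:71323885-71323944 of mm9, plus strand. The brightest Cd8a probe lies downstream of it on the same strand, at chr6:71328911-71328970. The probes of Cd3e (chr9:44806828-44806887, minus strand), Cd3g (chr9:44777868-44777927, minus strand) and Cd8b1 (chr6:71287231-71287290, plus strand) are given by position. In the gene order of the RefSeq table Cd3g, Cd3d and Cd3e follow each other on chromosome 9, Cd8b1 and Cd8a are neighbours on chromosome 6, and Cd247 lies on chromosome 1.

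An array had 14619 to 50776 probes well above background in its polysomal channel and 12531 to 30976 in its sub-polysomal channel, with 0 saturated spots, and the number of extracts limits the precision. All members but Cd247 were above background in both channels on all 8 arrays of each genotype. The Cd247 probe was above it on 8 arrays of each genotype in the polysomal channel and on 6 in the sub-polysomal channel, so all 6 members passed the filter of at least 6 arrays in all 4 comparisons. Of the markers of CD8 T cells, Cd3e, Cd8a, Cd8b1 and Runx3 (4 of 4) were above background on all arrays. The B cell genes Ms4a1, Cd79a and Pax5 were above it in both channels on 0 arrays, as were Foxp3, Klrb1c, Adgre1, Cd14, Itgax, Flt3, Col1a1 and Pdgfra. Cd4 and Zbtb7b, listed for CD4 T cells, were above it on all 16 arrays, with a summed log2 level of 11.63 to 12.52 in WT and 11.87 to 12.32 in Lck-/-. The summed level of the NK cell list, in which 1 of 4 genes (Eomes, also made by CD8 T cells) was above background on all arrays, was 9.85 to 10.47 in WT and 10.91 to 12.34 in Lck-/-. Of the erythroid genes, Alas2 was above background on 0 arrays and Hba-a1 on 12, with a mean log2 level of Hba-a1 of 7.67 in WT and 8.70 in Lck-/-. For macrophages and monocytes, with Csf1r and Itgam above background on all arrays, the summed level was 10.84 to 11.69 in WT and 10.91 to 11.49 in Lck-/-. Other listed genes were above background on all 16 arrays too, Cd79b for B cells, Ikzf4 for regulatory T cells and Siglech and H2-Ab1 for dendritic cells, and Cd74 was so on 15. The summed level of the dendritic cell list was 14.78 to 15.11 in WT and 14.89 to 15.09 in Lck-/-. This sum mostly reflects Siglech, whose own mean level was 14.78 in WT and 14.90 in Lck-/-. Within the list H2-Ab1, a class II chain, had a mean level of 10.87 ± 0.24 (SD, n = 4) in WT and 9.89 ± 0.21 in Lck-/-. That change of -0.98 passed the limma test (SE 0.16, adjusted p = 0.00286), where 11% of 9394 genes were called lower. It was the 1 call among 3 tested genes of the list. H2-Aa of the same list went from 7.05 in WT to 7.52 in Lck-/-, above background on 4 arrays, and was not tested. In the ratio 1 of 3 tested genes of the list was called higher in Lck-/-. In the polysomal level 1 of 4 was called higher and 1 lower. The part of other cells in the results was not tested. Lck, the check of the labels, had a mean log2 level of 15.03 ± 0.21 (SD, n = 4) in WT and 14.18 ± 0.13 in Lck-/-, and the difference of -0.85 passed the test (SE 0.14, limma adjusted p = 0.00318). The Lck probe was still well above background in both channels on all 8 arrays of Lck-/-, and the labels do not say whether it lies in the altered part of the gene.

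The arrays labelled WT 1 and WT 2 went against their own dye swaps, and this touches several members. In the other 6 extracts the log2 ratios of Cd3e on the arrays with polysomal RNA in Cy5 and in Cy3 differed by -0.39 to 0.13. In WT 1 and WT 2 they differed by 1.25 and -1.15. For Cd247 these gaps were -1.35 and 1.57, against -0.25 to 0.46 in the other 6 extracts, and for Cd8b1 they were 0.93 and -0.99, against -0.25 to 0.30. With the dye swaps of the 2 extracts exchanged, here called crossed dye swaps, all 3 genes had gaps between -0.05 and 0.16 in both. Cd8a had gaps of 0.36 and -0.62, against -0.09 to 0.15 in the other 6 extracts, and -0.25 and -0.01 when crossed. For Cd3d they were -0.43 and -0.18, against -0.29 to 0.16, and -0.51 and -0.11 when crossed. Those of Cd3g were -0.01 and -0.53, against -0.44 to 0.03, and -0.36 and -0.19 when crossed. Crossing keeps the WT mean and changes the spread, so the SD of the WT ratio of Cd3e went from 0.29 to 0.57, that of Cd247 from 0.29 to 0.66 and that of Cd8b1 from 0.16 to 0.42. Over all tested genes, the log2 ratios of an array were taken as deviations from the mean of its genotype and dye orientation. Between an extract's own 2 arrays these correlated at 0.45 to 0.84 in the other 6 extracts. In WT 1 and WT 2 the correlation was -0.83 and -0.80, and with crossed dye swaps 0.86 and 0.93. The arrays so paired share a slide, slide 1 for WT 1 in Cy5 and slide 2 for WT 2 in Cy5. Whether a slide alone holds both extracts is therefore uncertain. Values are given for the extracts as labelled, and the cause of the mismatch was not tested.

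The first comparison asks how strongly each mRNA was loaded on polysomes relative to the typical mRNA. Within-array loess sets the log2 ratio of polysomal over sub-polysomal signal of the typical mRNA to about 0. Cd3d and Cd247, the subunits delta and zeta, lay above 0 in all 8 extracts as labelled. With crossed dye swaps Cd247 was at -0.27 in WT 1. The other members, each read with its brightest probe, had means between -0.17 and 0.15. In WT 32.7% of the 8484 tested genes were called higher than 0 and 28.9% lower, and in Lck-/- 26.2% and 29%, so a call was common.

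Cd3d, the delta chain, which pairs with epsilon, had ratios of 0.31, 0.51, 0.26 and 0.65 in WT extracts 1 to 4 and 0.47, 0.39, 0.62 and 0.44 in Lck-/- extracts 1 to 4. All lay above 0 and the genotypes overlapped. The means were 0.43 ± 0.18 (SD, n = 4; limma adjusted p = 0.00176 against 0) and 0.48 ± 0.10 (limma adjusted p = 0.00133). With polysomal RNA in Cy5 alone the WT value was 0.36 with limma adjusted p = 0.0555.

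Cd247 encodes zeta, the chain with most ITAMs of the complex. Its ratios were 0.48, 0.43, 1.07 and 0.62 in WT and 0.51, 0.52, 1.25 and 1.39 in Lck-/-. Extract 3 of WT and extracts 3 and 4 of Lck-/- were high, and within Lck-/- the spread was the widest of the 6 members. The means were 0.65 ± 0.29 (SD, n = 4; limma adjusted p = 0.00514) and 0.92 ± 0.47 (limma adjusted p = 0.000917). The WT call had limma adjusted p = 0.0477 with crossed dye swaps, where the WT 1 and WT 2 values were -0.27 and 1.19. On slide 1 alone the WT value was 0.22 (limma adjusted p = 0.404), with polysomal RNA in Cy3 alone it was 0.57 (limma adjusted p = 0.0710), and as the mean of all Cd247 probes it was 0.19 (limma adjusted p = 0.141).

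Cd3e encodes epsilon, which is shared by both CD3 pairs. Its ratios were -0.23, -0.16, -0.21 and 0.38 in WT and 0.01, 0.35, 0.16 and 0.01 in Lck-/-. Only WT 4 stood apart in WT, and the groups overlapped. Cd3g, the gamma chain, the other partner of epsilon, had ratios of -0.12, -0.03, 0.55 and -0.14 in WT and 0.12, -0.50, -0.03 and -0.23 in Lck-/-. Here WT 3 was high and Lck-/- 2 low. Neither gene passed the test against 0 in either genotype, with means between -0.16 and 0.13 and limma adjusted p between 0.326 and 0.691.

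Cd8a, the chain that holds Lck, had ratios of -0.14, -0.02, -0.34 and -0.07 in WT and -0.29, -0.16, -0.14 and -0.10 in Lck-/-. As labelled all 8 were below 0, by little, and with crossed dye swaps WT 1 was at 0.16 and WT 2 at -0.33. The means of -0.15 ± 0.14 (SD, n = 4) and -0.17 ± 0.08 had limma adjusted p of 0.154 and 0.102. With Agilent's processed signals both were called lower than 0, at -0.29 in WT (limma adjusted p = 0.0130) and -0.23 in Lck-/- (limma adjusted p = 0.0360). Cd8b1, the beta chain, had ratios of -0.04, -0.05, -0.20 and 0.19 in WT and 0.18, 0.05, 0.17 and 0.22 in Lck-/-. In WT the values fell on both sides of 0 and in Lck-/- all 4 were above it, with means of -0.03 ± 0.16 (SD, n = 4) and 0.15 ± 0.07 and limma adjusted p of 0.802 and 0.147.

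Within extracts the order of the ratios was as follows. Cd3d lay above Cd3e, Cd8a and Cd8b1 in 8 of 8 extracts and above Cd3g in 7, and Cd247 lay above Cd3e, Cd3g, Cd8a and Cd8b1 in 8. Cd247 and Cd3d were not separated, with Cd247 above in 6 extracts and a gap of 0.33 ± 0.41 (SD, n = 8). With crossed dye swaps Cd3d lay above Cd8a in 8 of 8 extracts, and each of the other counts of 8 became 7. Cd8b1 lay above Cd8a in 7 of 8 extracts under both pairings, by 0.22 ± 0.15 (SD, n = 8). The order of Cd8a depends on its probe. Read with the upstream probe, Cd8a lay above Cd3e, Cd3g and Cd8b1 in 8 of 8 extracts, above Cd3d in 7 and above Cd247 in 5, and with crossed dye swaps these counts were 7, 7, 7, 7 and 4.

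**Figure D1:**
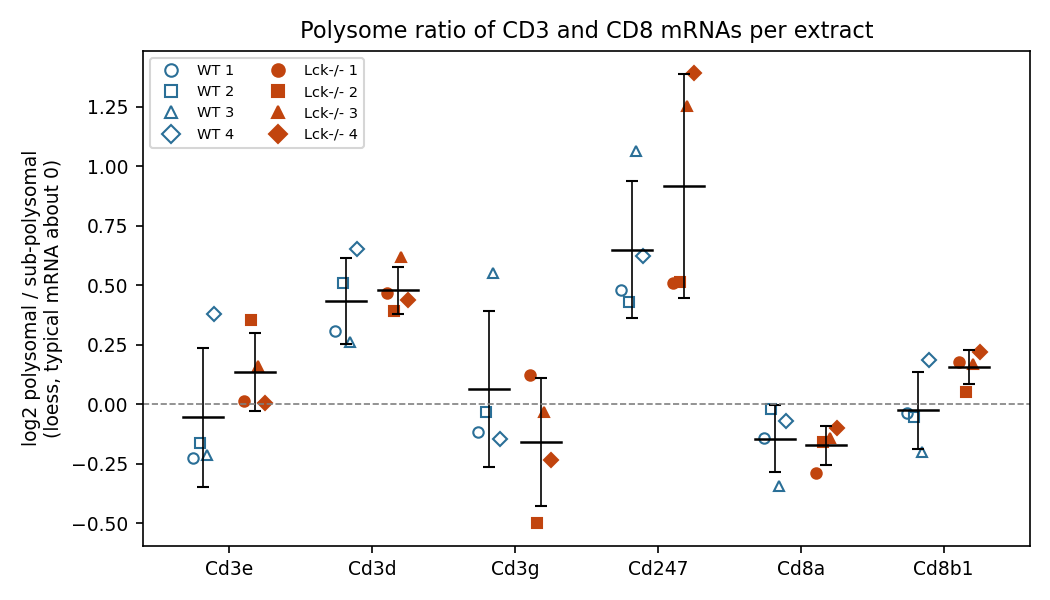
Normalised log2 ratio of polysomal over sub-polysomal signal for each member (horizontal axis), with open blue symbols for the 4 WT extracts, filled orange symbols for the 4 Lck-/- extracts, a bar at the mean and whiskers of 1 SD. Cd3d and Cd247 lie above 0 in all 8 extracts as labelled, and the genotypes overlap for every member.

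The second comparison asks whether the loading of these mRNAs differed between genotypes. None of the 6 members passed the test and none had groups that did not overlap. Over the same 8484 genes 2.69% were called higher in Lck-/-, 0.919% were called lower, and 14.4% had groups of 4 that did not overlap. The differences, Lck-/- minus WT, ran from -0.23 for Cd3g to 0.27 for Cd247 with a median of 0.11, beside a median of -0.04 over all genes. The limma adjusted p ran from 0.435 (Cd8b1) to 0.924 (Cd8a), and 0 of 6 had an unadjusted p below 0.05.

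The intervals show what sizes the data leave possible. For Cd8a the difference was -0.03 with a 95% interval of -0.29 to 0.23, and for Cd3d it was 0.05 with -0.24 to 0.33. The interval was widest for Cd247, from -0.24 to 0.78 around 0.27. Cd3e had a difference of 0.19 (-0.16 to 0.55), Cd8b1 0.18 (-0.09 to 0.45) and Cd3g -0.23 (-0.64 to 0.19). The slides gave values on opposite sides of 0 for Cd247, 0.79 on slide 1 alone (limma adjusted p = 0.249) and -0.25 on slide 2 alone (limma adjusted p = 0.687). For Cd3e they were -0.04 (limma adjusted p = 0.940) and 0.43 (limma adjusted p = 0.438). The Cd247 ratio on slides 1 and 2 was 0.22 and 1.07 in WT, and 1.01 and 0.83 in Lck-/-. Each slide holds 1 array labelled WT 1 and 1 labelled WT 2, so slide and dye-swap mismatch cannot be told apart here.

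The normalised ratio cannot show a shift that the typical mRNA shares, so the ratios before normalization are given next. There 5 of the 6 members were called lower in Lck-/-, as were most genes, and Cd247 was not called. The median log2 ratio over tested genes was 1.32 ± 0.30 (SD, n = 4) in WT and 0.51 ± 0.26 in Lck-/-, which differed by -0.81 (exact two-sided permutation p = 0.0286, the smallest that 70 arrangements allow). The labelling took 1.5 µl of RNA whatever its mass, so the yield of a pool enters this value.

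Before normalization Cd3e had log2 ratios of 1.39, 0.94, 1.59 and 1.47 in WT and -0.05, 0.49, 0.86 and 0.66 in Lck-/-. Cd3d had 1.93, 1.59, 2.04 and 1.75 in WT and 0.42, 0.55, 1.28 and 1.08 in Lck-/-. In both genes, and in Cd8a, Cd8b1 and Cd3g that follow, every WT extract lay above every Lck-/- extract. The share of all genes so separated before normalization was not counted. Cd8a fell from 1.42, 1.21, 1.51 and 1.09 to -0.14, 0.19, 0.67 and 0.66, and Cd8b1 from 1.57, 1.15, 1.66 and 1.32 to 0.17, 0.24, 0.87 and 0.91. Cd3g fell from 1.46, 1.25, 2.42 and 1.01 to 0.24, -0.15, 0.72 and 0.49. These 5 members were called lower in limma without normalization, by 0.86 to 1.21 (limma adjusted p from 0.000122 to 0.00464), where 70.6% of all genes were called lower and the median gene moved by -0.77. In this fit the 5 had the same SE of 0.28, although their SDs ran from 0.19 to 0.62. The p-values thus rest on a variance pooled over genes that share the shift of each extract. They do not allow for a shift seen in only 4 against 4 extracts, as the permutation p above does.

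Cd247 went the least far, with 1.47, 1.34, 2.48 and 1.42 in WT and 1.16, 0.82, 1.99 and 1.92 in Lck-/-. The groups overlapped, and the means of 1.68 ± 0.54 (SD, n = 4) and 1.47 ± 0.57 differed by -0.21, without a call. The authors' deposited table holds ratios that keep the overall level. A limma fit of its columns called the same 5 members lower, with a shared SE of 0.32, as it did 88.9% of all genes. There Cd3d had 1.86, 2.15, 2.89 and 2.06 in the WT columns and 0.75, 0.99, 0.86 and 0.83 in the columns named OFF. In the authors' deposited table Cd247 had 1.98, 1.98, 3.58 and 1.75 in WT and 1.099 to 2.32 in OFF, and the groups overlapped as in the scanner values.

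**Figure D2:**
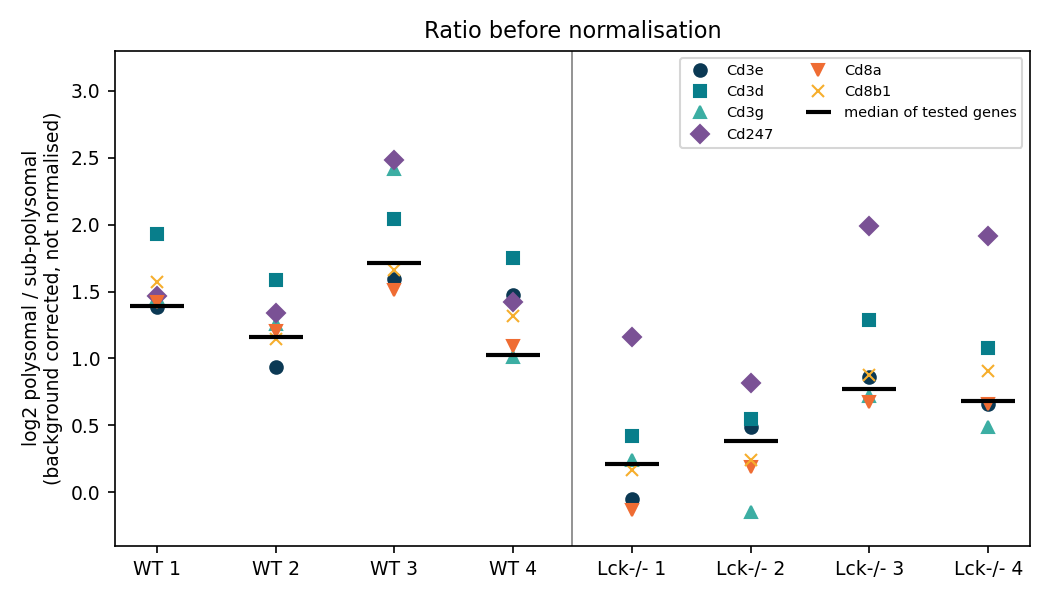
Background-corrected log2 ratio of polysomal over sub-polysomal signal before normalization, with a symbol per member, for the 8 extracts along the horizontal axis, and black bars at the median of the tested genes. The bars lie between 1.02 and 1.71 in WT and between 0.21 and 0.77 in Lck-/-. The members lie around them, with Cd247 and Cd3d above the bar in every extract.

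The third comparison asks whether the amount of these mRNAs, relative to the typical mRNA, differed, as the mean log2 level of both pools. In such bulk RNA, fewer cells of a type and less RNA per cell cannot be told apart. No member passed the test, where 9.85% of 9394 genes were called higher in Lck-/- and 11% lower. At an unadjusted p below 0.05 there were 2 members, Cd3d, which was lower, and Cd8b1, which was higher. The 6 differences had a median of -0.03, beside 0.04 over all genes.

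Cd3d had mean levels of 14.27, 14.20, 14.11 and 14.13 in WT and 13.996, 13.96, 13.82 and 13.54 in Lck-/-. The groups did not overlap, as in 25.9% of genes. The means of 14.18 ± 0.07 (SD, n = 4) and 13.83 ± 0.21 differed by -0.35 (SE 0.13, 95% interval -0.64 to -0.06, limma adjusted p = 0.0798). With slide and dye as terms the limma adjusted p was 0.0223, on slide 1 alone the difference was -0.33 (limma adjusted p = 0.131) and on slide 2 alone -0.38 (limma adjusted p = 0.0941). Without Lck-/- replicate 1 it was -0.41 (limma adjusted p = 0.0446), and with quantile scaling -0.43 (limma adjusted p = 0.0409).

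Cd8b1 had mean levels of 12.98, 13.03, 12.74 and 13.10 in WT and 13.55, 13.75, 13.18 and 13.04 in Lck-/-. Extracts 1 to 3 of Lck-/- lay above all WT extracts and Lck-/- 4 lay among them. The means of 12.96 ± 0.15 (SD, n = 4) and 13.38 ± 0.33 differed by 0.42 (SE 0.17, 95% interval 0.05 to 0.79, limma adjusted p = 0.0975). With slide and dye as terms the limma adjusted p was 0.0332, and the slides alone gave 0.41 (limma adjusted p = 0.159) and 0.44 (limma adjusted p = 0.0981).

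Cd8a, read with its brightest probe, had levels of 11.51, 11.54, 11.40 and 11.70 in WT and 11.94, 12.19, 11.74 and 11.40 in Lck-/-. The pattern was that of Cd8b1, with Lck-/- extracts 1 to 3 above all WT extracts and Lck-/- 4 at the low end of WT, and a difference of 0.28 (SE 0.17, limma adjusted p = 0.247). Cd3e had levels of 14.19, 14.13, 13.71 and 14.37 in WT and 14.15, 14.19, 13.43 and 13.37 in Lck-/-. Here Lck-/- 1 and 2 lay with WT and Lck-/- 3 and 4 below all of WT, and the difference of -0.32 (SE 0.22, limma adjusted p = 0.318) was smaller than the SD of 0.45 within Lck-/-.

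Cd3g had levels of 12.56, 12.34, 12.65 and 12.18 in WT and 12.28, 12.22, 12.74 and 12.60 in Lck-/-, which differed by 0.03 (95% interval -0.32 to 0.37, limma adjusted p = 0.924). Cd247 had 8.56, 8.36, 8.61 and 8.22 in WT and 8.48, 7.97, 8.47 and 8.47 in Lck-/-, which differed by -0.09 (95% interval -0.43 to 0.25, limma adjusted p = 0.711). Both genes overlapped between genotypes, with Lck-/- 3 above all WT extracts for Cd3g and Lck-/- 2 below all of them for Cd247. Within Lck-/-, extracts 1 and 2 were above extracts 3 and 4 for Cd3e, Cd3d, Cd8a and Cd8b1, and below them for Cd3g.

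The fourth pair of comparisons takes each pool after loess, which acts on both channels, so a level is relative to the typical mRNA. Without normalization the median gene moved by -0.31 in the polysomal pool, where Cd3d and Cd3e were called lower, as were 2838 of 10294 genes. In the sub-polysomal pool the median gene moved by 0.37, and Cd3g, Cd8a and Cd8b1 were called higher, as were 3647 of 9704 genes. After loess no member passed the test in the polysomal pool. There 5.96% of 10294 genes were called higher, 9.22% lower and 23% had groups without overlap. In the sub-polysomal pool no member passed either, where 9.49% of 9704 genes were called higher, 10.8% lower and 26.1% had groups without overlap. Cd3d was the 1 member of 6 without overlap in each pool, and Cd8b1 in the polysomal pool and Cd3d in the sub-polysomal pool were the members with an unadjusted p below 0.05.

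In the polysomal pool Cd8b1 had levels of 12.96, 13.00, 12.64 and 13.19 in WT and 13.64, 13.78, 13.26 and 13.15 in Lck-/-. Only Lck-/- 4 fell within the WT range. The difference was 0.51 (SE 0.19, 95% interval 0.10 to 0.92, limma adjusted p = 0.0831). On slide 2 alone it was 0.61 (limma adjusted p = 0.0484), on slide 1 alone 0.42 (limma adjusted p = 0.381), and with slide and dye as terms the limma adjusted p was 0.0498. In the sub-polysomal pool Cd8b1 differed by 0.33 (limma adjusted p = 0.189).

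Cd3d had polysomal levels of 14.43, 14.46, 14.24 and 14.46 in WT and 14.23, 14.15, 14.13 and 13.76 in Lck-/-, with a difference of -0.33 (SE 0.15, limma adjusted p = 0.167). Its sub-polysomal levels were 14.12, 13.95, 13.98 and 13.81 in WT and 13.76, 13.76, 13.51 and 13.32 in Lck-/-, with a difference of -0.37 (SE 0.14, limma adjusted p = 0.0824). Every Lck-/- extract lay below every WT extract in both pools. With slide and dye as terms the sub-polysomal limma adjusted p of Cd3d was 0.0295.

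For Cd247 the polysomal difference was 0.04 (limma adjusted p = 0.917) and the sub-polysomal difference -0.22 (limma adjusted p = 0.304). Its sub-polysomal levels were 8.32, 8.15, 8.08 and 7.91 in WT and 8.23, 7.71, 7.84 and 7.78 in Lck-/-, which overlap, and 6 of 8 arrays per genotype were above background there. Cd3e differed by -0.22 in the polysomal pool (limma adjusted p = 0.591) and in the sub-polysomal pool by -0.41 (limma adjusted p = 0.164), Cd8a by 0.27 (0.345) and 0.29 (0.236), and Cd3g by -0.09 (0.815) and 0.14 (0.541), with limma adjusted p in brackets.

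**Figure D3:**
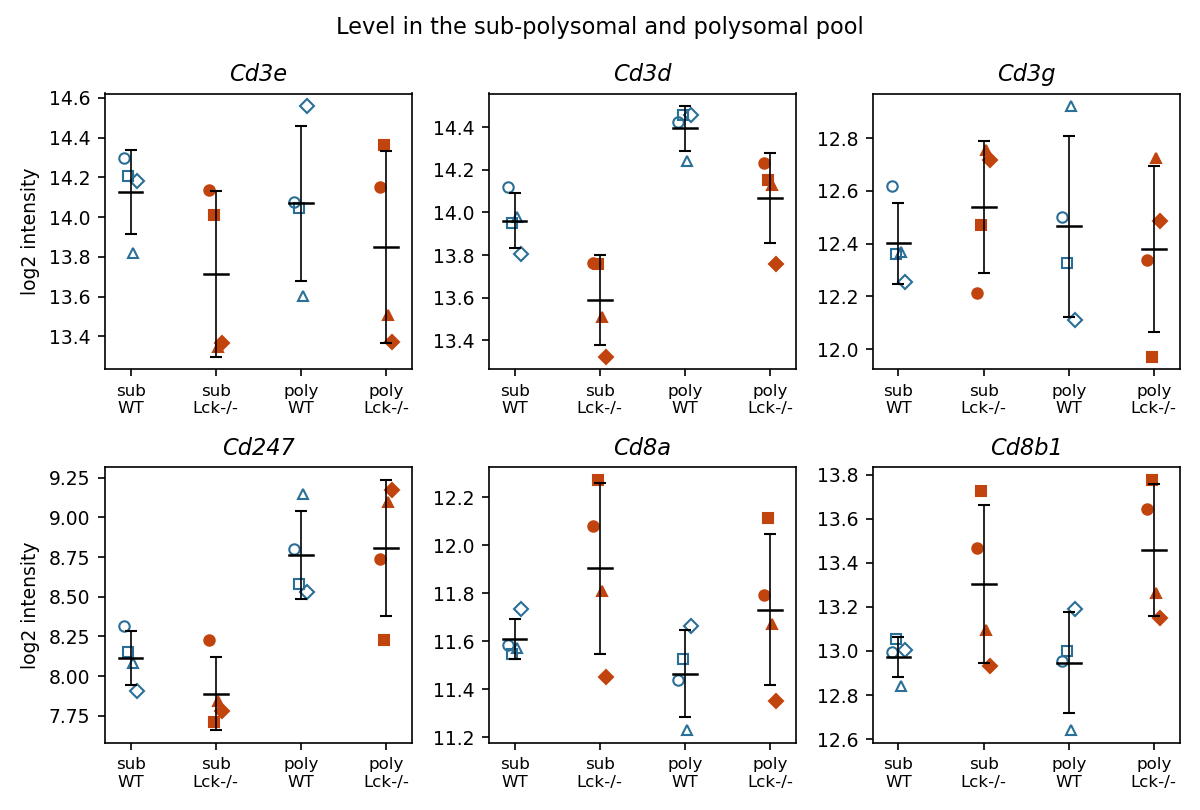
Log2 intensity of each member in the sub-polysomal and polysomal pools (horizontal axis) of the 4 WT extracts (open blue) and 4 Lck-/- extracts (filled orange), with circle, square, triangle and diamond for replicates 1 to 4, a bar at the mean and whiskers of 1 SD. For Cd3d every Lck-/- extract lies below every WT extract in each pool, and the other 5 members overlap.

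**Figure D4:**
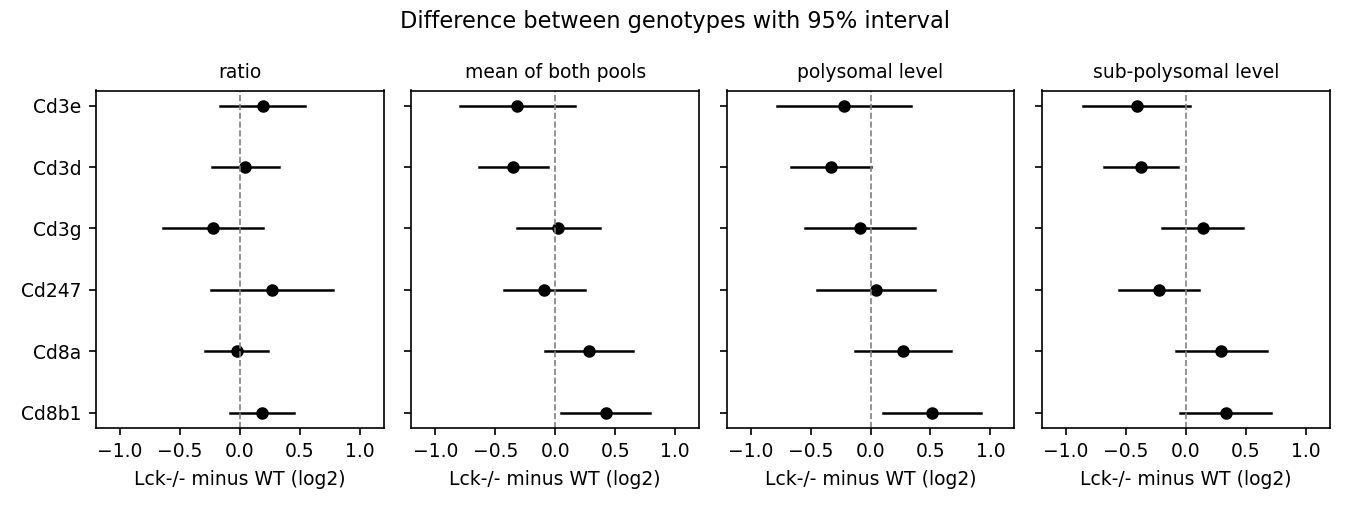
Difference between genotypes in log2, Lck-/- minus WT, for each member (vertical axis) in the ratio, in the mean of both pools and in each pool alone, with a dot at the estimate and a line over the 95% interval of the limma fit. The intervals of Cd3d in the mean and sub-polysomal level and of Cd8b1 in the mean and polysomal level leave out 0 before adjustment.

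Cd8a was measured by 2 probes, and these were compared after their values had been seen, with every probe taken as its own feature. The upstream probe, printed above, had ratios of 0.58, 0.48, 0.85 and 0.66 in WT and 0.56, 0.63, 0.65 and 0.66 in Lck-/-. As labelled, it lay above 0 in all 8 extracts, whereas the downstream probe lay below 0 in all 8. With crossed dye swaps the downstream probe had 0.16 in WT 1 and -0.33 in WT 2. The means of 0.64 and 0.62 were called higher than 0 (limma adjusted p = 9.9e-05 and 0.000205), as were 33.1% and 26.5% of 10698 probes. Downstream minus upstream, the ratio gap was -0.79 ± 0.29 (SD, n = 4) in WT and -0.80 ± 0.04 in Lck-/-. The downstream probe was printed on 10 spots, whose log2 ratios had an SD of 0.03 to 0.10 within an array, so the gap was larger than the spread between spots. Such gaps were common among 1835 genes with 2 probes that passed. A ratio gap was called in 36.1% of them in WT and in 38.5% in Lck-/-. It was at least as large as that of Cd8a in 9.8% and 8.2%. The choice of probe thus changes the side of 0 on which Cd8a falls, and the mean of all its probes was 0.25 in WT (limma adjusted p = 0.0100) and 0.23 in Lck-/- (limma adjusted p = 0.0197).

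The levels of the 2 Cd8a probes also differed in direction between genotypes. The upstream probe had mean levels of 10.64, 10.19, 10.42 and 10.53 in WT and 10.44, 10.30, 10.01 and 9.54 in Lck-/-, which differed by -0.38 (SE 0.19, limma adjusted p = 0.185), where the downstream probe had 0.28 (limma adjusted p = 0.257). The gap between the probes was 0.87, 1.34, 0.98 and 1.17 in WT and 1.50, 1.90, 1.73 and 1.86 in Lck-/-, so every Lck-/- extract lay above every WT extract. Only its change between genotypes can be read, since the probes differ in brightness. The change was 0.66 (SE 0.14, limma adjusted p = 0.0210 over 1835 genes with 2 probes that passed, exact two-sided permutation p = 0.0286). Of these genes 13.6% were called, so a gap that differed between genotypes was no rarity. On slide 1 alone it was 0.48 (exact permutation p = 0.0571) and on slide 2 alone 0.83 (exact permutation p = 0.0286). The second Cd247 probe, at chr1:167800324-167800383 of mm9, was above background on 5 of 8 arrays per channel and genotype and did not pass the filter.

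**Figure D5:**
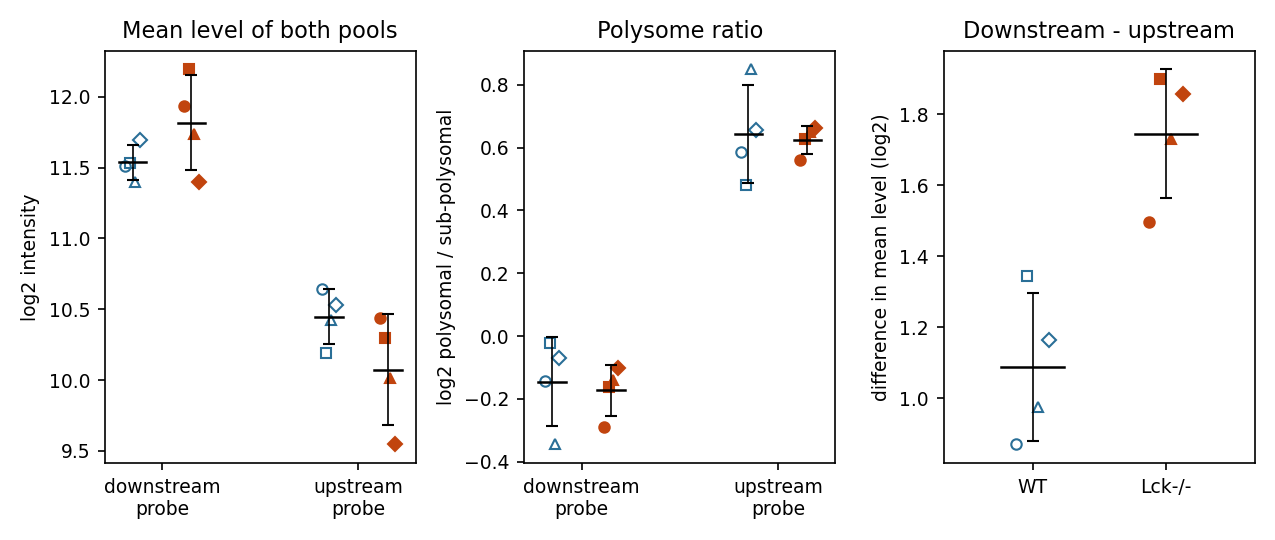
Mean log2 level of both pools (left), normalised log2 ratio (middle) and the difference in mean level between the probes (right) for the downstream and upstream Cd8a probes in the 4 WT extracts (open blue) and 4 Lck-/- extracts (filled orange), with a bar at the mean and whiskers of 1 SD. With extracts as labelled, the ratios of the upstream probe lie between 0.48 and 0.85 and those of the downstream probe below 0. The right panel shows no overlap between genotypes, as was so for 20.9% of genes with 2 probes that passed.

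Around the receptor, a list of 51 genes that sit next to it or signal from it was read from the same fits. In the ratio 0 of 43 tested genes passed, where 2.69% of all genes were called higher and 0.919% lower. In the mean level 4 of 45 tested genes rose and 4 fell, beside 9.85% and 11% of all genes, with a median of 0.02 beside 0.04 over all genes. In the polysomal pool 1 of 47 rose and 4 fell, beside 5.96% and 9.22% of all genes (median 0.01, all genes 0.00). In the sub-polysomal pool 6 of 45 rose and 3 fell, beside 9.49% and 10.8% (median 0.00, all genes 0.05). Lck is itself in the list and counts among those that fell in each level. Whether the list differs from other genes was not tested.

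After Lck itself, the smallest p in the mean level belonged to Vav1, an exchange factor for Rac. Vav1 rose by 0.82 (SE 0.16, limma adjusted p = 0.00632), from 12.85 ± 0.14 (SD, n = 4) to 13.67 ± 0.29. Lat, the membrane scaffold that ZAP-70 phosphorylates, rose by 0.58 (SE 0.12, limma adjusted p = 0.00930), and Nck2, an adaptor to the actin skeleton, rose by 0.65 (SE 0.15, limma adjusted p = 0.0154). Trat1, a transmembrane adaptor that associates with the receptor complex, had a mean level lower by 0.65 (SE 0.14, limma adjusted p = 0.00928). The extracts of the genotypes did not overlap for any of these 4 genes, as in 25.9% of all genes tested. This adds no support, since the genes were chosen by their smallest p.

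In the polysomal pool Vav1 rose by 0.93 (SE 0.19, limma adjusted p = 0.0105). Lck, Trat1, Cd5 and Sla fell there, with differences of -0.91 (SE 0.19), -0.72 (SE 0.20), -0.60 (SE 0.17) and -0.56 (SE 0.15) and limma adjusted p from 0.0107 to 0.0337. Cd5 is a surface inhibitor of receptor signalling, and Sla encodes SLAP, an adaptor that brings zeta to ubiquitin ligases. In the sub-polysomal pool Lat, Vav1, Nck2 and Lcp2, the scaffold SLP-76, rose by 0.76, 0.71, 0.77 and 0.65 (SE 0.13 to 0.17, limma adjusted p from 0.00417 to 0.0132). Of 5 other adaptors of the ITAM or DAP10 kind, 4 were tested in the levels and none passed, and of 5 names for receptor constant regions 1 was on the array and it was not tested.

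For the likeness of levels over 16 values (8 extracts in 2 pools), each gene was read with its brightest probe. So read, Cd8a and Cd8b1 had the highest Pearson r of any member pair, 0.85 as labelled and 0.83 with crossed dye swaps. The upstream Cd8a probe was not part of this. Its mean level differed between genotypes by -0.38, where that of Cd8b1 differed by 0.42. Within CD3, Cd3e and Cd3d had r = 0.57 and Cd3e and Cd3g r = -0.76 (0.50 and -0.62 crossed). These correlations are descriptions, since the 16 values share extracts and arrays and mix genotypes and pools. Among 8910 other genes the most similar to Cd3e were Nup155 (r = 0.90), Ptbp1 (0.90) and Rab11b (0.89), and to Cd3d Uqcrc1 (0.94), Ddx27 (0.94) and Ipo4 (0.93). The most similar to Cd3g were Mrpl49, Eno3 and Glrx3 (r = 0.87 each), and to Cd247 Spast (0.92), Rnf113a1 (0.91) and Ifi35 (0.91). For Cd8a they were Rap1b (r = 0.90), Atp6v1f (0.86) and Sf3a1 (0.86), and for Cd8b1 Snx11 (0.90), Was (0.89) and Alg1 (0.88). The 99th percentile of r over these genes was 0.70 to 0.84, depending on the member.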

How the data were processed

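Spot and background intensity, per the file headers, came from Agilent Feature Extraction 10.7.3.1, with probe positions on mm9. Yes-or-no flags per spot (unit other), as deposited, mark signal above background, saturation and outliers. The authors' deposited table holds log2 ratios. The submitters' processing notes name limma, without version or normalization. Its columns were matched to genotypes, not to replicates.

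With limma 3.58.1 (R 4.3.3, data.table version 1.17.8), intensities were background corrected (normexp, offset 50), ratios normalised by loess and levels by Aquantile. Dye swaps of an extract were averaged, and a gene needed a probe above background on 6 of 8 arrays of each genotype for the ratio, or of 1 genotype for a level. Gene symbols came from the RefSeq table (27235 probes by accession, 3581 by symbol, 565 by synonym). Linear models with eBayes were fitted to all genes and p adjusted by Benjamini-Hochberg over all genes tested, with a threshold of 0.05. The script was tested on simulated data.

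The named genes are Lck, the 6 members with all their probes, the 5 pathway genes with the smallest p among those called in each comparison, and 3 genes most similar to each member. Other settings changed background correction, normalization, filter, probe choice, dye, slide, weights, scaling, replicates and dye-swap pairing. The members, lists and settings were chosen with earlier results of these data known. The replicate numbers of the genotypes were not used to pair the samples. Same-numbered extracts had correlations of deviations from -0.24 to 0.26 in the ratio and from -0.21 to 0.45 in the mean level. These do not settle whether the numbers pair the samples, and a fit with the replicate number as a block is given below. No coordinates other than those of the files were used. Some marker genes are not reported here.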

Additional observations from a re-analysis of the deposited data

Results flagged for a closer look

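In 48 sets of 4 extracts (6 members, 4 measures, 2 genotypes) 4 held an extract far from the other 3 by Dixon's criterion, which chance gives in about 1 of 20 sets. The ratio of Cd3e in WT 4 was 0.38, with the nearest other WT extract at -0.16. The ratio of Cd3g in WT 3 was 0.55, with the nearest at -0.03. The polysomal level of Cd3d in WT 3 was 14.24, with the nearest at 14.43, and it was still above all Lck-/- extracts. The mean level of Cd247 in Lck-/- 2 was 7.97, with the nearest at 8.47. The cause of these values was not tested.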

How the results depend on the processing

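Values without normalization and the authors' deposited ratios keep the overall level of the ratio and changed the calls, as these settings are built to do. Median centring, which centres all spots of an array, left the tested genes at a median of 1.03 in WT and 0.22 in Lck-/-. It changed the calls too. Against 0 in WT, 7801 of 8484 genes were called without normalization and 7066 with median centring, and in Lck-/- 5101 and 2639. Without normalization 5 of 6 members were called in the ratio difference, 2 in the polysomal and 3 in the sub-polysomal level, 6 against 0 in WT and 4 in Lck-/-; with median centring these counts were 5, 2, 3, 6 and 1, and with the authors' deposited ratios 5, 6 and 4 for the ratio difference, WT and Lck-/-. The ratio differences of Cd3e, Cd3d and Cd8b1 then turned negative, to -0.86, -0.995 and -0.88 without normalization, -0.85, -0.99 and -0.87 with median centring and -1.26, -1.38 and -1.25 in the authors' deposited ratios. The WT ratios of Cd3e, Cd8a and Cd8b1 turned positive, to 1.35, 1.31 and 1.42 without normalization, 1.06, 1.02 and 1.14 with median centring and 1.77, 1.71 and 1.84 in the authors' deposited ratios. With the mean of all probes the Cd8a ratio was 0.25 in WT and 0.23 in Lck-/-, above 0. Columns of the authors' deposited table that were centred called 0 of 6 members in the ratio difference.

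Against 0 in WT 1 member was called with Cy5 alone, with Cy3 alone, on slide 1 alone and with the filter on all arrays, which left out Cd247 and also gave 1 call in Lck-/-. The polysomal level gave 1 call on slide 2 alone (Cd8b1) and 1 with quantile scaling (Cd3d), which also gave 1 in the mean level. Over all genes the polysomal calls numbered 2097 and 1472 of 10294, and those in the mean level 1887 of 9394. Slide and dye as terms gave 2, 1 and 1 calls in the mean, polysomal and sub-polysomal level, beside 2306 of 9394, 1851 of 10294 and 2196 of 9704 genes. Array weights gave 1 call in the ratio difference (Cd247, 0.68) and 3, 2 and 4 in the mean, polysomal and sub-polysomal level. Over all genes they called 1948 of 8484 in the ratio difference. In the 3 levels they called 5147 of 9394, 4125 of 10294 and 5335 of 9704, so calls were common there. Leaving out each replicate gave 0 to 1 calls in the mean level and 0 in the ratio difference. The cause of these changes was not tested. Of 919 member values recomputed, 20 reversed, 44 gained and 5 lost a call, and 74 changed sign with no call on either side.

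Over all genes 306 were called in the ratio difference, 118 with Agilent's processed signals, 203 without a filter, 1948 with array weights, 5 with Cy3 alone, 36 with Cy5 alone, 67 on slide 2 alone and 41 with crossed dye swaps. With the replicate number as a block 181 genes were called in the ratio difference and 0 of 6 members in any of the 4 comparisons. That block gave Cd3d a mean level difference of -0.35 (limma adjusted p = 0.103) and Cd8b1 0.42 (limma adjusted p = 0.104). Precision is limited by 4 extracts per genotype, by the dye-swap mismatch of WT 1 and WT 2 and by Cd247 spots below background in the sub-polysomal channel.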
